A study of Capra hircus with 6 samples.

Results

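Apoptosis genes were examined in mammary epithelial cells of the goat, in a list of 36 genes that runs from the BCL2 family to the death receptors and caspases. Open chromatin was measured by ATAC-seq, which uses Tn5 transposase to insert sequencing adapters into accessible DNA, such as that between nucleosomes. There were 3 libraries from lactation (numbered 1, 2 and 5 in the labels) and 3 from the dry period (1, 2 and 3), when the gland makes no milk. The labels give mammary gland as the tissue and mammary epithelial cell as the cell type of all 6 libraries, and no breed, age, parity or animal. The title of the series names accessible sites of lactation as places for inserting transgenes. The chosen data came from the authors' deposited table of differing accessibility, in which every listed p lies under 0.001. With no further limit on p, all regions were taken whose centre lies in a member gene or within 50000 bp of an end of it. These were 167 of 30714 regions. Of the 36 genes, 32 had a row in the gene table and 31 lay on a numbered chromosome. *BCL2L2*, *CASP10*, *CYCS* and *CLU* had no row under these names. *XIAP*, on the X chromosome, was not placed, because the sequences named in the region table could not be paired with X.

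Each region of the authors' deposited table carries 1 fold change, 1 p and 1 false discovery rate (FDR, the share of false calls expected among regions with a value as low or lower). The table gives no value per library, so there is no spread between replicates, and read depth is unknown. The regions are named in 2 sets of 22884 and 7830, called set 1 and set 2 here. All fold changes lie above 1 in both sets. The sets were read as the 2 directions of the comparison, one for each period, which the table itself does not state. Which set is lactation and which is the dry period is not stated in the sources used here. Every fold change below is therefore a size, and its direction is given by set. Whether the libraries of a period come from separate goats is not stated either, so the authors' p-values may measure technical spread. The cell type label could not be checked, since a table of differing regions holds no level of any marker gene.

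Apoptosis is the ordered death of a cell by caspases, proteases that cut each other and many other proteins. In the mitochondrial arm, BH3-only proteins sense stress and bind the protective members of the BCL2 family, which frees BAX and BAK1 to open the outer membrane and release cytochrome c. In the receptor arm, ligands such as FASLG bind receptors at the cell surface, and adaptors then gather and activate caspase-8. In the mammary gland of mice, much of the milk-secreting epithelium dies by regulated cell death when milk removal stops. In mice, *Bcl2l1* and *Mcl1* are known to protect the secretory cells, and *Bcl2l11* and *Bmf* to take part in their removal.

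All regions near apoptosis genes that passed an FDR of 0.05 belonged to set 1. They numbered 44 of the 167 listed (26.3%, with a 95% Wilson interval of 20.3% to 33.5% for counting error alone), and 0 were in set 2. Of all 30714 listed regions 27.8% passed, made up of 25.5% that passed in set 1 and 2.35% that passed in set 2. The share near apoptosis genes was thus close to the share of all listed regions. Among the other regions within 50000 bp of a protein-coding gene, 92.5% of those that passed were in set 1. The set 1 share near apoptosis genes, 100%, had a 95% Wilson interval of 92.0% to 100% for counting error alone. That interval holds the 92.5%. The members were chosen with earlier results of these data known, so the counts of genes that follow are described only. The part of that choice in them was not tested. Of the 31 placed genes, 24 (77.4%) had a region that passed, against 51.4% of all 19063 protein-coding genes on numbered chromosomes. All 31 had a listed region, against 79.7% of the other genes. The median number of listed regions was 5 per apoptosis gene (interquartile range 2.5 to 7) and 3 per other gene (1 to 6). The windows of the 2 groups of genes had similar median lengths, 118.9 kb and 117.8 kb. A region near an apoptosis gene had a median of 4 protein-coding genes within 50000 bp, and another region near a gene had 2; the part of this in the counts was not tested.

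**Figure D1:**
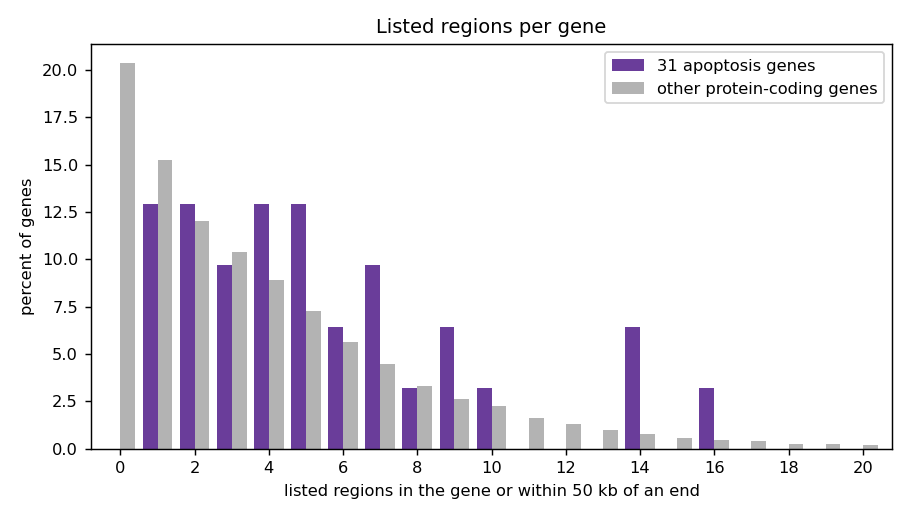
Percent of genes (vertical axis) with each number of listed regions in the gene or within 50 kb of an end (horizontal axis), for 31 apoptosis genes and the other protein-coding genes; counts over 20, which only other genes reach, are not drawn. No apoptosis gene is at 0, and *BCL2L1* with 16 regions, *MCL1* with 14 and *RIPK1* with 14 lie farthest right.

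The median fold near apoptosis genes was close to that near other genes. By the authors' deposited table the median fold of the 44 regions that passed was 2.12 (interquartile range 1.79 to 2.56), against 2.28 (1.86 to 2.99) for the set 1 regions that passed near other genes. In the authors' deposited table these 44 folds ran from 1.39, at *MCL1*, to 4.39, at *FADD*. Their median width was 400 bp, the same as near other genes. Over all listed regions near apoptosis genes, 144 were in set 1 with a median fold of 2.16 and 23 in set 2 with 3.03 in the authors' deposited table. Set 2 held 13.8% of them (95% Wilson interval 9.36% to 19.8%), against 23.5% of the other regions within 50000 bp of a gene. A listed set 2 region was found at 17 of the 31 apoptosis genes (54.8%), against 37.5% of other genes. Neighbouring regions and overlapping windows are not independent, and no test of these differences was made.

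**Figure D2:**
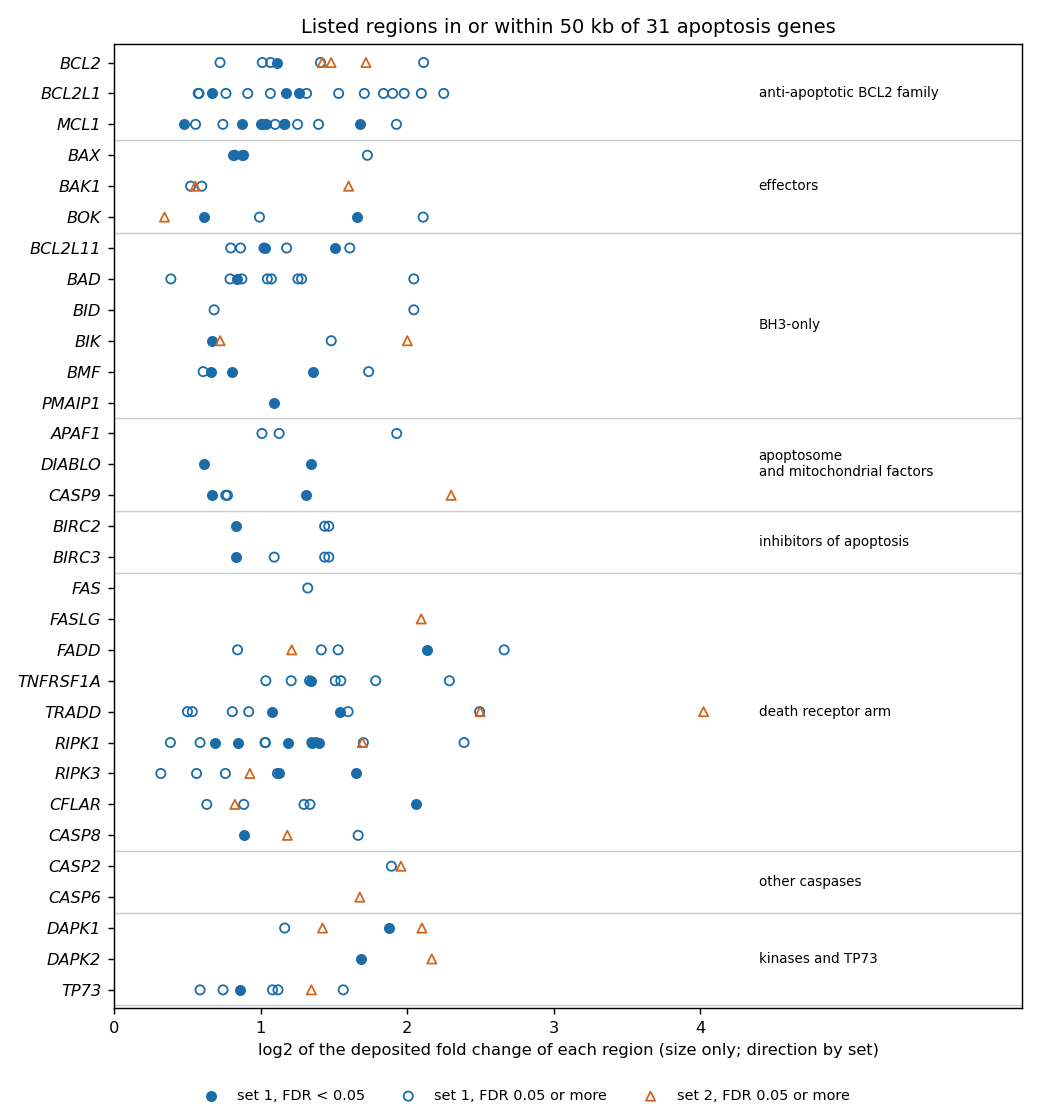
Size of the fold change, as log2 of the deposited value (horizontal axis), of every listed region of 31 apoptosis genes, ordered by role. Filled circles are the 44 set 1 regions with an FDR under 0.05 (the *BIRC2* and *BIRC3* region is drawn for both genes), open circles other set 1 regions and triangles the 23 set 2 regions, of which none passed; the highest, near *TRADD*, has a fold of 16.3.

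The FDR limit stood at a different p in each set, which bears on every set 2 region named here. The largest p of a region that passed, over the whole table, was 6.21e-05 in set 1 and 5.63e-06 in set 2. *DAPK2*, a calcium-regulated death-associated protein kinase, shows this within a single gene. In the authors' deposited table its set 2 region (chromosome 10, 57084601 to 57085100, inside the gene) had a p of 4.49e-05 and an FDR of 0.180, with a fold of 4.50. Its set 1 region (56999801 to 57000100, 1469 bp from an end) had a slightly larger p of 4.72e-05 but an FDR of 0.0417, with a fold of 3.21 in the authors' deposited table. With the same p limit of 1e-04 in both sets, 50 set 1 regions and 4 set 2 regions lay under it, so that 92.6% were in set 1, against 82.1% of other regions near genes. The 4 were those of *DAPK2*, *CASP6*, *BIK* and *BAK1*.

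**Figure D3:**
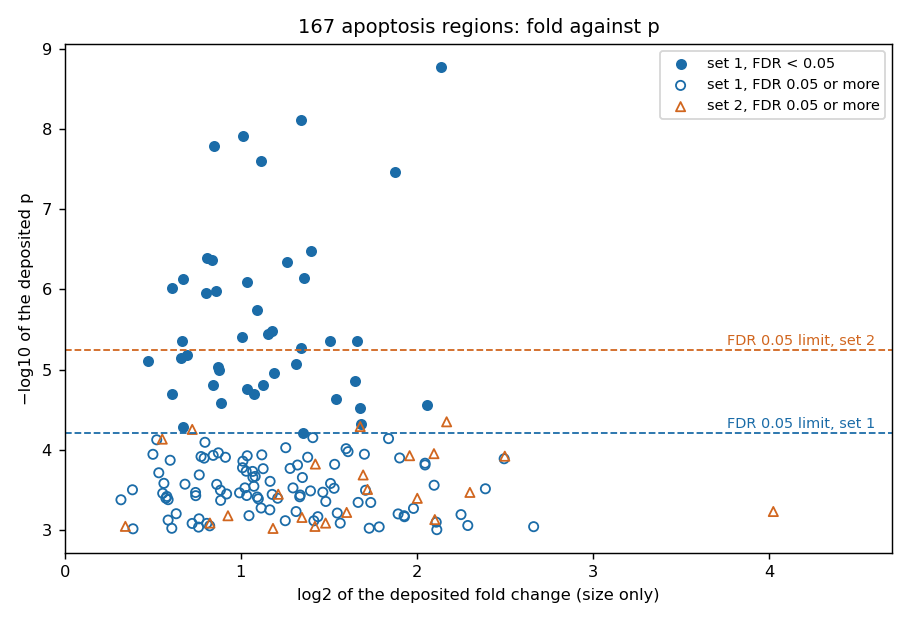
Size of the fold change as log2 of the deposited value (horizontal axis) against −log10 of the deposited p (vertical axis) for the 167 regions near apoptosis genes; dashed lines mark the largest p with an FDR under 0.05 in each set. The 44 filled points lie above the set 1 line, and no triangle (set 2) reaches the set 2 line.

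The anti-apoptotic BCL2 family had 39 listed regions at 3 placed genes. Of these regions 11 passed (28.2%, against 27.8% of all listed regions), all in set 1. *MCL1*, a short-lived protein that holds BAK1 and BH3-only proteins in check, had 7 that passed, the most of any member. Of the 31 placed apoptosis genes 2 (6.45%) had 5 or more, close to 5.33% of the other protein-coding genes. The strongest *MCL1* region by p lay on chromosome 3 at 100020401 to 100020800, with a fold of 2.02 (p = 1.23e-08, FDR = 0.000114) in the authors' deposited table. In the same table of the authors, deposited folds of the other *MCL1* regions that passed were 1.39, 1.83, 2.01, 2.05, 2.23 and 3.19. All 14 listed *MCL1* regions were in set 1, and none lay inside the gene. The 7 that passed lay from 7923 to 24723 bp from its ends, and were nearer to *ADAMTSL4* (4 regions) or *ENSA* (3 regions) than to *MCL1*.

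*BCL2L1* encodes BCL-XL, which guards the outer mitochondrial membrane. It had 16 listed regions, all in set 1, and 3 passed. Both of the strongest lay inside the gene on chromosome 13. One at 60559601 to 60560200 had a fold of 2.40 (FDR = 0.00172) in the authors' deposited table, and one at 60572901 to 60573600 had 2.26 (FDR = 0.00685). The last, 21847 bp outside the gene, had 1.59 (FDR = 0.00845) in the authors' deposited table. A run of 8 set 1 regions lay between 1247 and 21847 bp below the lower-numbered end of the gene. Their folds reached 4.76 in the authors' deposited table, but apart from the region at 21847 bp none of them passed. That region lay inside *LOC102179296*. Only the region at 1247 bp had *BCL2L1* as its nearest gene, and the others of the run lay inside or nearer to *LOC102179296*.

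*BCL2*, the founding member of the family, had 6 listed regions in set 1 and 3 in set 2. Its 1 region that passed (chromosome 24, 61820701 to 61821100) lay 49994 bp from the gene and so just inside the window's limit. *KDSR* was the gene nearest to it, at 859 bp. Its fold in the authors' deposited table was 2.16 (FDR = 0.000196). Inside *BCL2* there were 4 set 1 and 2 set 2 regions, and none passed. The set 2 pair lay 100 bp apart at 61611701 to 61611900 and 61612001 to 61612200, with folds of 3.29 (FDR = 0.508) and 2.79 (FDR = 0.789) in the authors' deposited table.

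**Figure D4:**
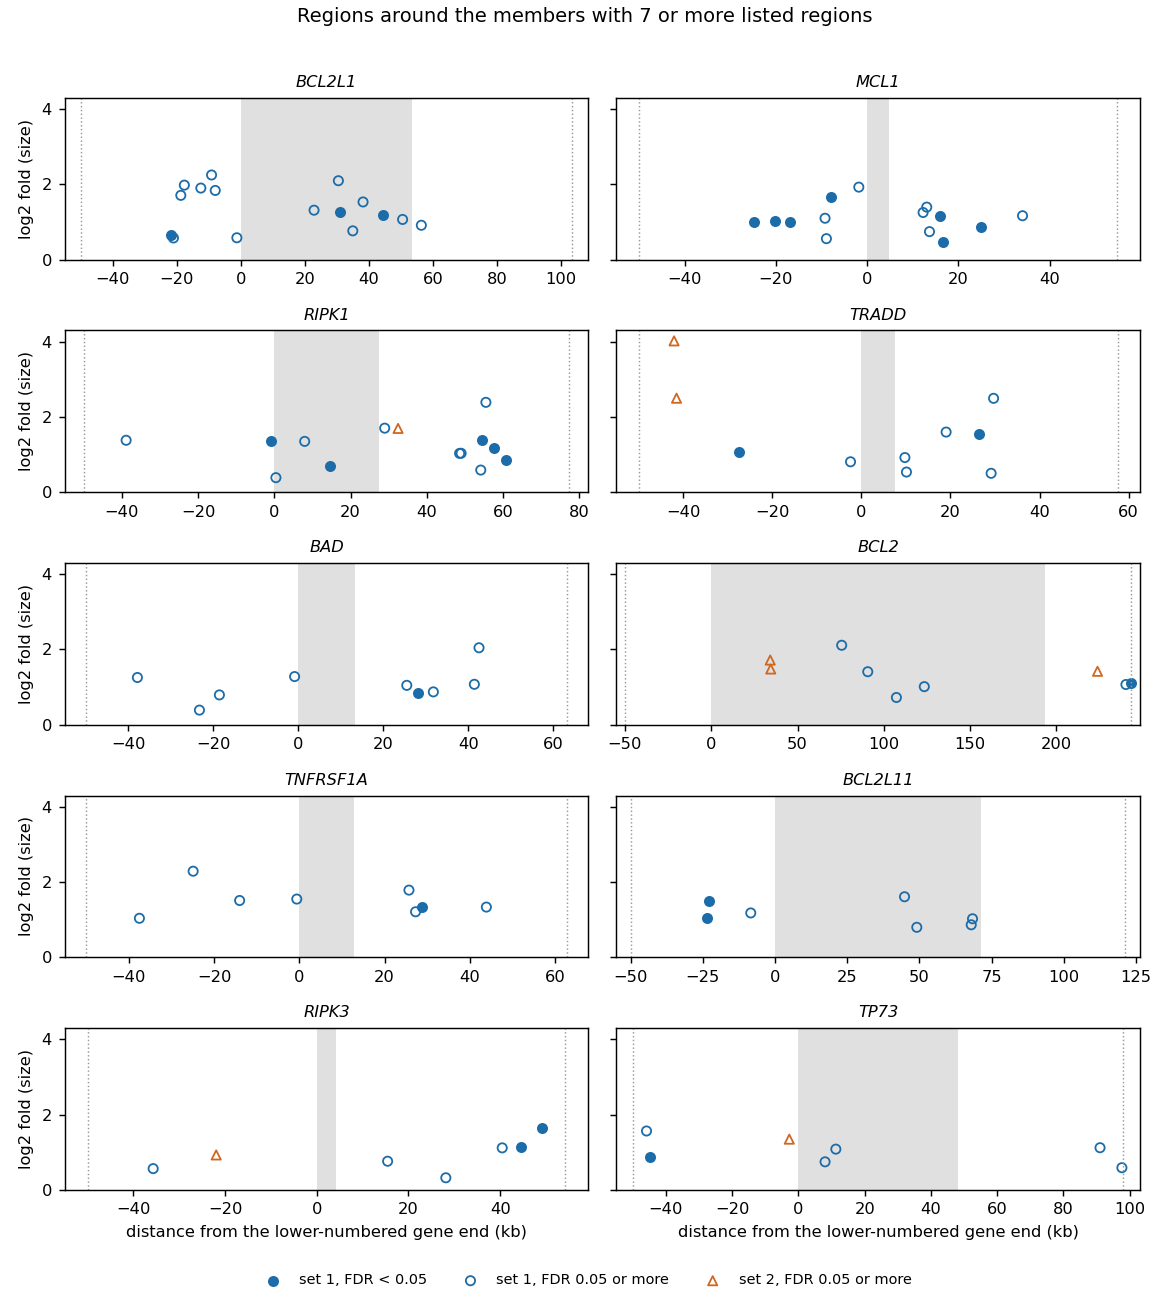
Regions around the 10 apoptosis genes with 7 or more listed regions: distance of the region's centre from the lower-numbered end of the gene in kb (horizontal axis) and log2 of the deposited fold change (vertical axis, size only). Grey marks the gene, dotted lines the limits of the window, filled circles set 1 regions with an FDR under 0.05, open circles other set 1 regions and triangles set 2 regions. *MCL1* has all 14 regions outside the gene, while *BCL2L1* has 7 of its 16 inside.

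Of the effectors, which form the pores of the outer membrane, *BAX* and *BOK* had regions that passed and *BAK1* had none. These were 2 of 3 genes, beside 51.4% of all protein-coding genes with a region that passed. Of their 14 listed regions 4 passed (28.6%, against 27.8% of all listed regions). *BAX* had 5 listed regions in set 1 and 0 in set 2, *BOK* 4 and 1, and *BAK1* 2 and 2. A *BAX* region of 1000 bp on chromosome 18 at 56554601 to 56555600 lay inside the gene, 1479 bp from an end, with a fold of 1.83 (FDR = 0.0142) in the authors' deposited table. It lies inside *TULP2* as well, since the 2 genes overlap there. The other *BAX* region that passed lay 49421 bp away, near *KCNA7*, at 1.75 (FDR = 0.00157) in the authors' deposited table. *BOK*, a relative of BAX and BAK1, had a region 6338 bp from the gene (chromosome 3, 437101 to 437400) with a fold of 3.16 (FDR = 0.00847) in the authors' deposited table. The gene nearest to it was *THAP4*, at 2380 bp. A second *BOK* region that passed was inside *FARP2*, 43515 bp away, at 1.53 (FDR = 0.0236) in the authors' deposited table. *BAK1* had a set 1 region 215 bp from an end (chromosome 23, 40967601 to 40968200), whose FDR of 0.0565 missed the limit, with a fold of 1.44 in the authors' deposited table. A set 2 region 6900 bp from it, centre to centre, had nearly the same p (7.39e-05, against 7.53e-05) and a fold of 1.47 in the authors' deposited table, but an FDR of 0.239.

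The BH3-only genes, the stress sensors of the mitochondrial arm, had 28 listed regions, of which 8 passed (28.6%, against 27.8% of all listed regions). They lay at 5 of 6 genes, beside 51.4% of all protein-coding genes with a region that passed. All listed regions were in set 1 (7 at *BCL2L11*, 9 at *BAD*, 5 at *BMF*, 2 at *BID* and 1 at *PMAIP1*) except at *BIK*, which had 2 in each set. *BCL2L11* encodes BIM, which binds all protective BCL2 proteins. Both of its regions that passed lay 300 bp apart on chromosome 11, at 1024501 to 1024800 and 1025101 to 1025600, 23521 and 22821 bp from the gene. Their folds in the authors' deposited table were 2.05 (FDR = 0.00257) and 2.85 (FDR = 0.00848). No other protein-coding gene lay within 50000 bp of this pair. *BMF*, which is held at the cytoskeleton and freed when cells lose their attachment, had 3 that passed on chromosome 10. That inside the gene (67309101 to 67309500) had a fold of 1.58 (FDR = 0.0119) in the authors' deposited table. Those outside had 1.74 at 13128 bp (FDR = 0.00320) and 2.57 at 28228 bp (FDR = 0.00239) in the authors' deposited table, the last of them inside *BUB1B*.

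*PMAIP1* encodes NOXA, a partner of MCL1 that p53 induces. Its single listed region (chromosome 24, 58961101 to 58961500) passed, 10538 bp from the gene and with no other protein-coding gene within 50000 bp, at a fold of 2.13 (FDR = 0.00450) in the authors' deposited table. *BAD*, which growth factor kinases keep inactive, had 9 listed regions in set 1 and 1 that passed (chromosome 29, 43023701 to 43024500), 14984 bp away and inside *TEX40*, at 1.79 (FDR = 0.0200) in the authors' deposited table. For *BIK* the region that passed lay 29594 bp away, near *TSPO*, at 1.59 (FDR = 0.0446) in the authors' deposited table. A pair of set 2 regions lay inside *TSPO*, 39744 and 40744 bp from *BIK*, at 1.65 (FDR = 0.205) and 4.01 (FDR = 0.577) in the authors' deposited table. *BID*, which caspase-8 cuts to link both arms, had 2 set 1 regions, neither of which passed; that of smaller p had a fold of 4.13 (FDR = 0.0887) in the authors' deposited table.

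Downstream of the mitochondria, 4 of 10 listed regions passed (40%, against 27.8% of all listed regions), and 1 of the 10, at *CASP9*, was in set 2. *CASP9*, the caspase that the apoptosome activates, had a region 1054 bp from an end (chromosome 16, 50489301 to 50489600) with a fold of 2.48 (FDR = 0.0132) in the authors' deposited table. The start or end of *DNAJC16* lay nearer to it, at 776 bp. A second *CASP9* region that passed lay 44263 bp away inside *EFHD2*, at 1.59 (FDR = 0.00242) in the authors' deposited table. *DIABLO*, a mitochondrial protein that binds and blocks the inhibitors of apoptosis, had 2 listed regions and both passed. Neither was close: one (chromosome 17, 18118401 to 18118800) lay 49527 bp away inside *CLIP1*, at 2.53 (FDR = 8.12e-05) in the authors' deposited table, and one lay 20990 bp away near *LRRC43*, at 1.53 (FDR = 0.00291). *APAF1*, the scaffold of the apoptosome, had 3 set 1 regions, and none passed. In the authors' deposited table the 2 inside the gene had folds of 2.01 (FDR = 0.0931) and 2.18 (FDR = 0.0947).

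*BIRC2* and *BIRC3* encode cIAP1 and cIAP2, ubiquitin ligases of the tumour necrosis factor receptor complex, and lie side by side on chromosome 15. All 4 listed regions were in set 1, and 1 of them passed (25%, against 27.8% of all listed regions). They shared 3 of their listed regions, which were counted once. The 1 region that passed (76058201 to 76058800) was shared too. It lay inside *BIRC3*, 2410 bp from an end, and 46130 bp from *BIRC2*, with a fold of 1.78 (FDR = 0.00166) in the authors' deposited table.

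The death receptor arm held 56 listed regions at 9 placed genes, of which 13 passed (23.2%, against 27.8% of all listed regions). They lay at 7 of the 9 genes, beside 51.4% of all protein-coding genes with a region that passed. Listed regions in set 1 and set 2 numbered 5 and 1 at *FADD*, 8 and 0 at *TNFRSF1A*, 8 and 2 at *TRADD*, 13 and 1 at *RIPK1*, 6 and 1 at *RIPK3*, 5 and 1 at *CFLAR* and 2 and 1 at *CASP8*. *FADD*, the adaptor that joins death receptors to caspase-8, had the smallest p of all 167 regions, and this region was number 446 of set 1 by p. It lay on chromosome 29 at 48404101 to 48404700, 19954 bp from *FADD* and inside *ANO1*, with a fold of 4.39 (p = 1.69e-09, FDR = 2.51e-05) in the authors' deposited table. A set 1 region 400 bp farther along had the highest set 1 fold near any member, 6.33 in the authors' deposited table, but an FDR of 0.256. Inside *FADD* itself, 409 bp from an end, lay a set 2 region at 2.32 (FDR = 0.543), and 1800 bp from it, centre to centre, a set 1 region at 2.89 (FDR = 0.133) in the authors' deposited table. This was the closest pair of opposite sets at any member.

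*RIPK1*, the kinase that turns receptor signals towards survival or death, had 14 listed regions on chromosome 23, of which 5 passed. The strongest, at 15158101 to 15158600 and 33488 bp from the gene, had a fold of 1.80 (FDR = 0.000142) in the authors' deposited table. Together with 2 others that passed, at 2.63 (FDR = 0.00138) and 2.28 (FDR = 0.0160) in the authors' deposited table, it was nearest to or inside *TUBB2A*. The region inside *RIPK1* (15111701 to 15112300) had 1.62 (FDR = 0.0111) in the authors' deposited table. At 785 bp from an end, a region (15096601 to 15096800) had a fold of 2.55 and a p of 6.20e-05 in the authors' deposited table, only just under the FDR limit. *RIPK3*, the kinase of necroptosis, had 2 regions that passed, both nearer to *NFATC4*, 44973 and 40373 bp away, at 3.14 (FDR = 0.0185) and 2.18 (FDR = 0.0202) in the authors' deposited table.

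*CFLAR* encodes cFLIP, which blocks the activation of caspase-8. Its region that passed lay inside the gene on chromosome 2 at 46228001 to 46228300, with a fold of 4.17 (FDR = 0.0294) in the authors' deposited table. *CASP8* itself had a region of 800 bp inside the gene at 46100301 to 46101100, 631 bp from an end, at 1.85 (FDR = 0.0286) in the authors' deposited table. *TNFRSF1A*, the main receptor for tumour necrosis factor, had 8 listed set 1 regions. The 1 that passed (chromosome 5, 102971901 to 102972700) lay 15955 bp away inside *PLEKHG6*, with a fold of 2.54 (FDR = 0.00969) in the authors' deposited table. Its adaptor *TRADD* had 10 listed regions on chromosome 18. Those that passed lay inside *C18H16orf70* and *KIAA0895L*, 27477 and 18932 bp away, at 2.11 (FDR = 0.0240) and 2.91 (FDR = 0.0260) in the authors' deposited table. The largest fold near any apoptosis gene, 16.3 in the authors' deposited table, was that of a set 2 region of 200 bp at 36021801 to 36022000, 42027 bp from *TRADD* and 629 bp from *CBFB* (p = 0.000591, FDR = 0.685). A second set 2 region 300 bp from it had a fold of 5.65 (FDR = 0.314) in the authors' deposited table.

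The ligand *FASLG* and its receptor *FAS* had 1 listed region each, and neither passed. That of *FASLG* was in set 2, 47279 bp away, at 4.28 (FDR = 0.302), and that of *FAS* in set 1, 13908 bp away, at 2.50 (FDR = 0.0888) in the authors' deposited table. The remaining caspases also had none that passed. *CASP6*, an executioner caspase, had a single set 2 region, 41288 bp away and inside *MCUB*, at 3.20 (FDR = 0.195) in the authors' deposited table. For *CASP2*, a caspase of the stress response, the set 2 region of smallest p lay inside *CLCN1*, 25290 bp away, at 3.89 (FDR = 0.311), beside a set 1 region at 3.71 (FDR = 0.207) in the authors' deposited table. *CASP6* and *FASLG* were thus the 2 placed genes with listed regions in set 2 alone, 6.45% of 31, against 10.4% among other genes that had any listed region.

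Listed regions in set 1 and set 2 numbered 2 and 2 at *DAPK1*, 1 and 1 at *DAPK2* and 6 and 1 at *TP73*. Of these 13 regions 3 passed (23.1%, against 27.8% of all listed regions). They lay at 3 of 3 placed genes, beside 51.4% of all protein-coding genes with a region that passed. *DAPK1*, a calmodulin-regulated kinase related to *DAPK2*, had a set 1 region that passed on chromosome 8 at 80715601 to 80716300, 43101 bp from the gene, with a fold of 3.67 (FDR = 0.000247) in the authors' deposited table. It lay closer to *CTSL*, at 32670 bp. The set 2 region of smaller p, 6251 bp from *DAPK1*, had a fold of 2.68 (FDR = 0.353) in the authors' deposited table. The other set 2 region, inside *DAPK1* and 93949 bp from an end, had 4.29 (FDR = 0.756) there. *TP73*, a p53 relative that can switch on death genes, had 7 listed regions, and the 1 that passed lay 44918 bp away inside *LRRC47* (chromosome 16, 47850601 to 47851100), at 1.82 (FDR = 0.00308) in the authors' deposited table.

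Most regions given to an apoptosis gene by distance lay nearer to another gene. For 14 of the 44 regions that passed (31.8%), an apoptosis gene was the nearest protein-coding gene, and these belonged to 10 members. Of the 44, 8 lay inside a member, at *BCL2L1*, *BAX*, *BMF*, *BIRC3*, *RIPK1*, *CFLAR* and *CASP8*, and 11 lay inside a member or within 3000 bp of an end, which adds *CASP9* and *DAPK2*. An end of some protein-coding gene lay within 3000 bp of 22 of the 44 (50%), against 36.3% of the regions that passed near other genes. The window's limit passes close to some of these values. Just inside it were the *BCL2* region at 49994 bp and that of *DIABLO* at 49527 bp, and a *TP73* region at 49587 bp with an FDR of 0.229 in the authors' deposited table. Just outside it, *CFLAR* had one at 50114 bp with 1.41 (FDR = 0.169) and *CASP9* one at 50204 bp with 2.65 (FDR = 0.193) in the authors' deposited table. Some regions lay in runs: 50 of 167 (29.9%) had a listed region of the same set with its centre within 2000 bp, against 26.4% of other regions on numbered chromosomes. Regions of the opposite set lay that close for 2 of 167 (1.20%), against 1.65%.

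A list of 48 other genes of the pathway, also chosen with earlier results of these data known, was read in the same way. On numbered chromosomes 45 were placed, and 31 of the 45 had a region that passed, against 51.4% of all protein-coding genes. All 31 had one in set 1, and 1 had one in set 2 as well, against 5.06% of all protein-coding genes with a set 2 region that passed. Of their 222 listed regions 80 passed (79 in set 1), 36.0%, against 27.8% of all listed regions. *CRADD*, an adaptor of caspase-2, had the smallest p, at a region inside the gene (chromosome 5, 23355301 to 23356100) with a fold of 2.24 (FDR = 2.33e-06) in the authors' deposited table. *PIDD1*, its partner in that complex, had a region 7462 bp away (chromosome 29, 45724701 to 45725400) at 2.06 (FDR = 2.11e-05) in the authors' deposited table, while *CASP2* had none that passed. The channel gene *VDAC3* had 1.69 at 41422 bp (FDR = 7.43e-06), and *DFFA*, the inhibitor of the caspase-activated nuclease, 4.26 at 34786 bp (FDR = 1.61e-05) in the authors' deposited table. The kinase *DAPK3* had 1.80 inside the gene (FDR = 3.70e-05), and the BH3-only gene *HRK* 5.33 at 36716 bp (FDR = 0.000105) in the authors' deposited table. The set 2 region that passed lay 25660 bp from *ENDOD1*, at 1.71 (FDR = 0.0145) in the authors' deposited table. This region was named after its value was seen. Whether another gene lay nearer to the named regions outside these pathway genes is not given here.

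Lists of cell type markers, also chosen with earlier results known, were read in the same way, beside 27.8% of all listed regions that passed. Of all regions that passed, 91.5% were in set 1. Near 7 luminal markers 17 of 41 listed regions passed (41.5%), all in set 1. Near 5 basal markers 3 of 23 passed (13.0%), all in set 1, while 12 of the 23 listed (52.2%) were in set 2, against 25.5% of all listed regions. The basal marker *TP63* is also among the other genes of the pathway. Among the remaining markers, 9 of 25 passed near 6 immune markers (36.0%), 7 in set 1 and 2 in set 2. Near 5 endothelial markers 10 of 18 passed (55.6%), 6 in set 1 and 4 in set 2. Near 5 fibroblast markers 4 of 15 passed (26.7%), all in set 1, and near 3 placed adipocyte markers 5 of 14 (35.7%), 4 in set 1 and 1 in set 2. Set 2 held 9.76% of the listed regions near luminal markers and 24% near immune markers. It held 38.9% near endothelial, 26.7% near fibroblast and 28.6% near adipocyte markers. The part of a differing share of cell types in the apoptosis regions was not tested.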

How the data were processed

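Libraries were made from 50,000 cells each and sequenced on a BGISEQ-500, per the labels' protocols. Bowtie2 2.2.5 and MACS2 are named, with no role, in the submitters' processing notes. The build, the program that compared the periods, and any Tn5 shift or duplicate removal are absent from the labels and notes used here. The authors gave each region's fold change as a linear ratio. The authors deposited a p-value and a Benjamini-Hochberg FDR per region; every listed p lies under 0.001. The deposited score was not used.

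Region centres were placed against RefSeq genes of ARS1.2 (pandas 2.3.3, scipy 1.17.1). As the only check of the build, region positions were compared with gene ends at up to 1000 bp, and 29 of 29 chromosomes matched their own genes best. Across chromosomes, the lowest share of regions near their own genes was 7.71%. The highest share near another chromosome's genes was 10.6%. The gene table gives no strand, so gene starts are not told apart from ends, and no sequence was used. Placement was tested on simulated regions. A region passed at an FDR under 0.05. Members in the list, other pathway genes and markers were chosen with earlier results of these data known, and lists are described without a test. Every member is named, each with its region of smallest p where one is listed. Region coordinates are the authors', counted from 1. Alternatives were other FDR limits, windows, ways of placing a region, a fold minimum, and 2 added after seeing the data.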

Additional observations from a re-analysis of the deposited data

How the results depend on the processing

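The 4 results recomputed were the count of regions that passed (44), their set 1 share (100%), the count of genes with such a region (24) and the median fold (2.12), each under 11 alternatives; 32 of 44 values stayed within 1.5 times a count or within the 95% interval of the share or median. The count of regions was 24 at an FDR under 0.01, 74 under 0.1, 167 with every listed region, 27 with a fold of at least 2, 11 within 3000 bp, 29 within 25000 bp, 76 within 100000 bp and 14 where the member had to be the nearest gene. Genes numbered 9 within 3000 bp and 10 by the nearest gene. Fewer or more regions enter by construction in each of these. Shares of all protein-coding genes under the changed windows and placings are not given here. Whether the members still exceed other genes there cannot be read from these counts. The set 1 share was 86.2% with every listed region, 98.7% within 100000 bp and, chosen after seeing the data, 92.6% at a p under 1e-04 in both sets. The median fold was 2.53 with a minimum fold of 2, which removes lower folds by construction. Without *MCL1* and *RIPK1*, chosen after seeing the data, 32 regions at 22 genes passed. No paired analysis was possible because the table holds no value per library; leaving out single libraries could not be run either, and depth per region is unknown.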
